A study of Mus musculus with 6 samples.

Results

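The unfolded protein response and its ATF4 targets were followed in RAW 264.7 cells, a mouse macrophage line, grown for 3 days on zinc-based metals coated with calcium phosphate (CaP). The list held 35 genes, chosen by symbol in the deposited count table. Of these, 34 had at least 10 counts summed over the 6 libraries, out of 54532 genes in the table, and all 34 passed the filter on low counts. Vldlr, the very low density lipoprotein receptor and an ATF4 target in other cells, had 0 counts in every library, which allows up to 0.161 to 0.198 CPM (3 counts per library, counting error only). The 3 groups of 2 libraries were named for the metal under the coating: CaP Zn0.8Mn0.1Li, a zinc alloy of manganese and lithium, CaP Zn0.8Mn, an alloy of manganese alone, and CaP Zn, with neither. All 3 carried a CaP coating, and uncoated metal and plain culture plastic are no part of the comparison. Whether the pair of libraries on one alloy are separate cultures is not given in the labels, so a p-value here speaks of library spread, possibly technical in origin.

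Cells respond to unfolded proteins in the endoplasmic reticulum through 3 sensors in its membrane, PERK, IRE1 and ATF6. PERK phosphorylates the initiation factor eIF2α, which slows translation in general but favours that of Atf4, a transcription factor that turns on genes for amino acid synthesis, amino acid transport and the transcription factor CHOP. Other eIF2α kinases that sense amino acid shortage, heme shortage or viral RNA reach Atf4 as well, so its targets are not specific to the endoplasmic reticulum. IRE1 splices Xbp1 mRNA, and spliced XBP1 and cleaved ATF6 turn on chaperones, folding enzymes and the machinery that removes misfolded proteins. Macrophages use this response when they make secreted and membrane proteins in bulk. Splicing of Xbp1, phosphorylation and translation are not seen in a count per gene.

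The DNA letters these factors bind were looked for in the 250 bases before each RefSeq gene start (build GRCm38.p6), on both strands, to show which members carry them. A promoter was given for 31 of the 34 members, all but Hyou1, Slc7a5 and Manf. The ER stress response element (ERSE), which is CCAAT, 9 free bases and CCACG, stood in 5 members and in 37 of all 32851 promoters (0.113%). Its shorter form, ERSE-II, which is ATTGG, 1 free base and CCACG, stood in 1 member and in 10 promoters (0.0304%). The C/EBP-ATF element, TGATGNAA, bound by ATF4 with C/EBP partners, stood in 6 members and in 1134 promoters (3.45%). The UPR element, TGACGTGG, stood in 185 promoters (0.563%) and 0 of the members. The ERSE and ERSE-II were searched as separate words that can overlap in part, and a match is a description of letters, not of a bound site. The matches in members are shown on the strand that carries the motif, with the fixed letters in capitals. Those of the ERSE, all in chaperone and folding genes, were:
Hspa5 (chr2:34772025-34772043): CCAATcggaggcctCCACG
Hsp90b1 (chr10:86705638-86705656): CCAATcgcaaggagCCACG
Hsp90b1 (chr10:86705533-86705551): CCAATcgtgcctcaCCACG
Calr (chr8:84847075-84847093): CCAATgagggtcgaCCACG
Creld2 (chr15:88819520-88819538): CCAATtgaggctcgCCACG
Pdia6 (chr12:17266491-17266509): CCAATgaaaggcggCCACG

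The ERSE-II of Herpud1 and the C/EBP-ATF elements of the 6 members that hold one are shown next, in the same way. Herpud1 is the member with both kinds.
Herpud1, ERSE-II (chr8:94386377-94386387): ATTGGgCCACG
Herpud1, C/EBP-ATF (chr8:94386317-94386324): TGATGcAA
Asns (chr6:7693225-7693232): TGATGaAA
Atf3 (chr1:191183436-191183443): TGATGcAA
Chac1 (chr2:119351049-119351056): TGATGcAA
Nupr1 (chr7:126625573-126625580): TGATGcAA
Pck2 (chr14:55540163-55540170): TGATGtAA

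Whole windows are printed for 4 genes, Hspa5 because it is the most abundant member, Herpud1 because it holds both elements, and Chac1 and Nupr1 because they share the C/EBP-ATF letters and lay at opposite ends of the spread between libraries described below. Each runs 5′ to 3′ on the gene's own strand, with the matches in capitals. In Herpud1, Chac1 and Nupr1 the C/EBP-ATF element lies on the opposite strand, so its reverse complement is the run in capitals.
Hspa5 (chr2:34771840-34772089, plus strand): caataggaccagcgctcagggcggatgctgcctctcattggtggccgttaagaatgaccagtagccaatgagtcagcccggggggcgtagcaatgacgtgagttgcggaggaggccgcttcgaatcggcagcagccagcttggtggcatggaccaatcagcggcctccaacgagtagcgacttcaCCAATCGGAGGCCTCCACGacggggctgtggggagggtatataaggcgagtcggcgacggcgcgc
Herpud1 (chr8:94386179-94386428, plus strand): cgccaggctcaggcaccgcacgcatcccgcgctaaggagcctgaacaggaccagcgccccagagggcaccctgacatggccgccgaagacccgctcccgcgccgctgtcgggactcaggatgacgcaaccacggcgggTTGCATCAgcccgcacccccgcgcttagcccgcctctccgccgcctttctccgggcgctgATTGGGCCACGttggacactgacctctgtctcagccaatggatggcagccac
Chac1 (chr2:119350992-119351241, plus strand): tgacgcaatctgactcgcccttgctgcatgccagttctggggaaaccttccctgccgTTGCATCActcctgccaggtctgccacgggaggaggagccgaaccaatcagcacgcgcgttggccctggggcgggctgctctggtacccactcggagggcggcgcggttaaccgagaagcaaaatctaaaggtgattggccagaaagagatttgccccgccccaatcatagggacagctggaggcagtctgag
Nupr1 (chr7:126625471-126625720, minus strand): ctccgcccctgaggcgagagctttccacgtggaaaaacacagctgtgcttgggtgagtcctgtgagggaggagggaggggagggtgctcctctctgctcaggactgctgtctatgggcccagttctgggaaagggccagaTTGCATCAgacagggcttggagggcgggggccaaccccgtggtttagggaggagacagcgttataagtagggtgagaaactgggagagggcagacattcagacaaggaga

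Library totals ran from 14944070 to 17709290 counts, and levels are given as CPM, counts scaled to library size with TMM factors. All 8 macrophage markers on the list were detected and tested, with summed levels of 15097 and 15701 CPM on CaP Zn0.8Mn0.1Li, 9153 and 16529 CPM on CaP Zn0.8Mn and 10858 and 14079 CPM on CaP Zn. Most of this sum was Lyz2, lysozyme, with 5861 CPM in CaP Zn0.8Mn replicate 1 and 9182 to 14549 CPM in the others. In that library 4 of the 8 markers lay below all other libraries (Lyz2, Itgam, Cd68, Spi1) and 4 above them (Csf1r, Cd14, Fcgr1, Adgre1), with Csf1r, the receptor for the macrophage growth factor M-CSF, at 1598 CPM there against 319 to 374 CPM elsewhere. Markers of fibroblasts and osteoblasts, T and B cells, and endothelial and epithelial cells summed to at most 1.52 CPM per list and library. CaP Zn0.8Mn replicate 1 stood apart, with 7.88% of its counts in mitochondrial genes against 1.82% to 2.15% elsewhere, and a correlation of log2 CPM across genes of 0.909 to 0.927 with the others, which correlated at 0.991 to 0.995 among themselves. The 36 gene entries that carry a listed symbol took 0.657% of its counts, against 1.34% to 1.55% in the other 5 libraries. Medians and named fold changes of the comparisons that use CaP Zn0.8Mn are therefore given with and without this library. The part of mitochondrial share or library quality in the values was not tested. In bulk RNA, fewer cells of one state and less RNA per cell cannot be told apart.

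The members covered a wide range of levels. Per length, and averaged over the 5 libraries other than CaP Zn0.8Mn replicate 1, the deposited FPKM (fragments per length and library size) was highest for Hspa5 at 1299, followed by Calr at 653 and Hsp90b1 at 293, all chaperones of the endoplasmic reticulum. Atf4 stood at 161 FPKM, Ddit3 at 121 and Asns at 112. The lowest were Eif2ak3 at 5.00, Gdf15 at 3.11 and Chac1 at 2.96 FPKM. Across the same 5 libraries the members were close: the highest CPM of a member was 1.06 to 1.66 times its lowest, with a median of 1.20 times. Ddit3 had the widest spread of the 34 and Atf3, with 1.63 times, came next.

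**Figure D1:**
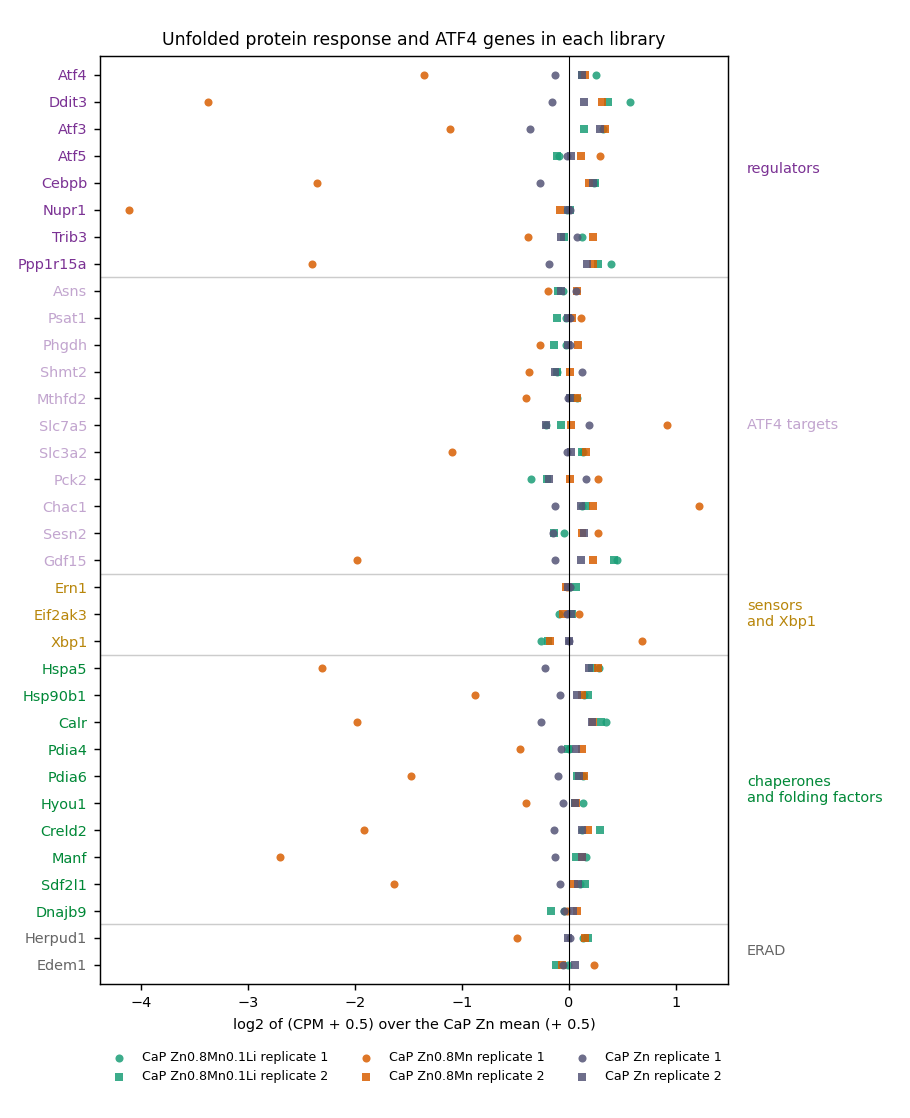
Each point is 1 library, placed by the log2 of its TMM-scaled CPM plus 0.5 over the CaP Zn mean, for the 34 members ordered by role; circles are replicate 1 and squares replicate 2. CaP Zn0.8Mn replicate 1 lies far left of the other 5 libraries for most regulators and chaperones, right of them for Chac1, Slc7a5 and Xbp1, and beside them for Ern1 and Dnajb9.

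Of the 8 regulators of the ATF4 branch, 7 were lower in CaP Zn0.8Mn replicate 1 than the mean of the other 5 libraries, and 1, Atf5, was higher. Ddit3, which encodes CHOP, a transcription factor tied to death under lasting stress, had 257 and 223 CPM on CaP Zn0.8Mn0.1Li, 16.3 and 214 CPM on CaP Zn0.8Mn, and 155 and 191 CPM on CaP Zn. Both libraries on CaP Zn0.8Mn0.1Li lay above both on CaP Zn, CaP Zn0.8Mn replicate 2 lay between the groups, and CaP Zn0.8Mn replicate 1 lay far below all others. Atf4 itself had 423 and 387 CPM on CaP Zn0.8Mn0.1Li, 139 and 394 CPM on CaP Zn0.8Mn, and 324 and 386 CPM on CaP Zn. Here too both libraries on CaP Zn0.8Mn0.1Li lay above both on CaP Zn, though CaP Zn0.8Mn0.1Li replicate 2 and CaP Zn replicate 2 were within 1 CPM of each other. Ppp1r15a, which encodes GADD34, the subunit that brings a phosphatase back to eIF2α, had 88.9 and 81.9 CPM on CaP Zn0.8Mn0.1Li, 12.4 and 79.2 CPM on CaP Zn0.8Mn, and 59.3 and 76.1 CPM on CaP Zn. Cebpb, a partner of ATF4 and a factor of macrophage gene control, had 117 and 118 CPM on CaP Zn0.8Mn0.1Li, 19.0 and 114 CPM on CaP Zn0.8Mn, and 82.6 and 116 CPM on CaP Zn. For these 4 genes the 2 libraries on CaP Zn0.8Mn0.1Li lay above those on CaP Zn, with CaP Zn replicate 1 the lower of its pair each time.

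The remaining regulators differed in pattern. Atf3, a stress-induced repressor of inflammatory genes, had 204 and 181 CPM on CaP Zn0.8Mn0.1Li, 75.3 and 207 CPM on CaP Zn0.8Mn, and 127 and 199.6 CPM on CaP Zn, so that all groups overlapped. Nupr1, a small stress-induced nuclear protein, had 96.2 and 98.5 CPM on CaP Zn0.8Mn0.1Li, 5.15 and 92.4 CPM on CaP Zn0.8Mn, and 98.3 and 97.0 CPM on CaP Zn. It was among the steadiest members in 5 libraries and the lowest relative to them in the other. Trib3, a pseudokinase induced by ATF4 and CHOP, had 41.8 and 37.4 CPM on CaP Zn0.8Mn0.1Li, 29.3 and 45.1 CPM on CaP Zn0.8Mn, and 40.5 and 36.5 CPM on CaP Zn. Atf5, a relative of Atf4 under the same translational control, had 16.2 and 15.9 CPM on CaP Zn0.8Mn0.1Li, 21.1 and 18.7 CPM on CaP Zn0.8Mn, and 17.0 and 17.5 CPM on CaP Zn. Atf5 was the regulator whose order ran the other way, with both libraries on CaP Zn0.8Mn highest and both on CaP Zn0.8Mn0.1Li lowest.

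The amino acid and folate genes among the ATF4 targets differed less between libraries than most regulators did. Asns, which makes asparagine, had 302 and 292 CPM on CaP Zn0.8Mn0.1Li, 273 and 329 CPM on CaP Zn0.8Mn, and 328 and 297 CPM on CaP Zn. The serine synthesis genes Phgdh and Psat1 and the mitochondrial folate genes Shmt2 and Mthfd2 likewise kept, in CaP Zn0.8Mn replicate 1, between 0.736 and 1.10 times the mean of the other 5 libraries. Pck2, the mitochondrial enzyme that makes phosphoenolpyruvate, had 100.2 and 111 CPM on CaP Zn0.8Mn0.1Li, 155 and 129 CPM on CaP Zn0.8Mn, and 144 and 113 CPM on CaP Zn. Both libraries on CaP Zn0.8Mn0.1Li lay below all 4 others for this gene. Sesn2, a stress-induced inhibitor of mTORC1, had 47.1 and 44.3 CPM on CaP Zn0.8Mn0.1Li, 58.8 and 53.0 CPM on CaP Zn0.8Mn, and 43.8 and 53.7 CPM on CaP Zn. Chac1, which degrades glutathione and is induced by ATF4, ATF3 and CHOP, had 4.95 and 5.07 CPM on CaP Zn0.8Mn0.1Li, 11.2 and 5.37 CPM on CaP Zn0.8Mn, and 4.09 and 4.93 CPM on CaP Zn. It was the member highest in CaP Zn0.8Mn replicate 1 relative to the rest, where the genes of its named inducers Ddit3, Atf3 and Atf4 were low.

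Transport and secretion genes split. Slc7a5 and Slc3a2 encode the light and heavy chains of one leucine transporter. Slc7a5 had 109 and 119 CPM on CaP Zn0.8Mn0.1Li, 237 and 128 CPM on CaP Zn0.8Mn, and 143 and 108 CPM on CaP Zn. Slc3a2 had 283 and 282 CPM on CaP Zn0.8Mn0.1Li, 120.5 and 288 CPM on CaP Zn0.8Mn, and 254 and 262 CPM on CaP Zn. In CaP Zn0.8Mn replicate 1 the light chain was thus at 1.95 times, and the heavy chain at 0.440 times, the mean of the other 5 libraries. Gdf15, a secreted stress cytokine, had 6.82 and 6.66 CPM on CaP Zn0.8Mn0.1Li, 0.859 and 5.75 CPM on CaP Zn0.8Mn, and 4.41 and 5.31 CPM on CaP Zn, an order that again put CaP Zn0.8Mn0.1Li on top.

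The sensor genes among the members, Ern1 and Eif2ak3, varied little. Ern1, which encodes IRE1, ranged from 69.9 to 74.6 CPM over all 6 libraries. Eif2ak3, which encodes PERK, ranged from 28.9 to 33.0 CPM, the highest in CaP Zn0.8Mn replicate 1. Atf6, a sensor gene that was not a member, had 414 CPM in that library and 219 to 261 CPM in the others. Xbp1, the mRNA that IRE1 splices, had 135 and 143 CPM on CaP Zn0.8Mn0.1Li, 262 and 144 CPM on CaP Zn0.8Mn, and 163 and 163 CPM on CaP Zn. Both libraries on CaP Zn0.8Mn0.1Li lay below both on CaP Zn, and CaP Zn0.8Mn replicate 1 lay far above every other library. Total Xbp1 counts do not separate spliced from unspliced mRNA.

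Among chaperones, the abundant ones shared a pattern. Hspa5, which encodes BiP, the chaperone that holds the sensors inactive, had 6031 and 5752 CPM on CaP Zn0.8Mn0.1Li, 1001 and 5972 CPM on CaP Zn0.8Mn, and 4248 and 5661 CPM on CaP Zn. Hsp90b1, which encodes GRP94, had 1229 and 1264 CPM on CaP Zn0.8Mn0.1Li, 608 and 1214 CPM on CaP Zn0.8Mn, and 1054 and 1179 CPM on CaP Zn. Calr, a chaperone of glycoproteins and a calcium store, had 2121 and 2049 CPM on CaP Zn0.8Mn0.1Li, 423 and 1957 CPM on CaP Zn0.8Mn, and 1397 and 1942 CPM on CaP Zn. For all 3, both libraries on CaP Zn0.8Mn0.1Li lay above both on CaP Zn, by a small margin over CaP Zn replicate 2. Manf, a secreted protein of stressed endoplasmic reticulum, had 269 and 252 CPM on CaP Zn0.8Mn0.1Li, 36.5 and 262 CPM on CaP Zn0.8Mn, and 220.4 and 261 CPM on CaP Zn, with overlap between all groups. Of the other folding factors, the disulfide isomerases Pdia4 and Pdia6, the nucleotide exchange factor Hyou1, and Creld2 and Sdf2l1, which work with them, were also below the other 5 libraries in CaP Zn0.8Mn replicate 1. Dnajb9, a co-chaperone of BiP, ranged from 17.7 to 21.1 CPM over all 6. Of the genes of protein removal, Herpud1, which helps assemble the degradation complex, had 103 and 107 CPM on CaP Zn0.8Mn0.1Li, 66.7 and 105 CPM on CaP Zn0.8Mn, and 94.2 and 93.5 CPM on CaP Zn. Edem1, a lectin that delivers misfolded glycoproteins to degradation, ranged from 440.2 to 563 CPM, the highest in CaP Zn0.8Mn replicate 1.

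**Figure D2:**
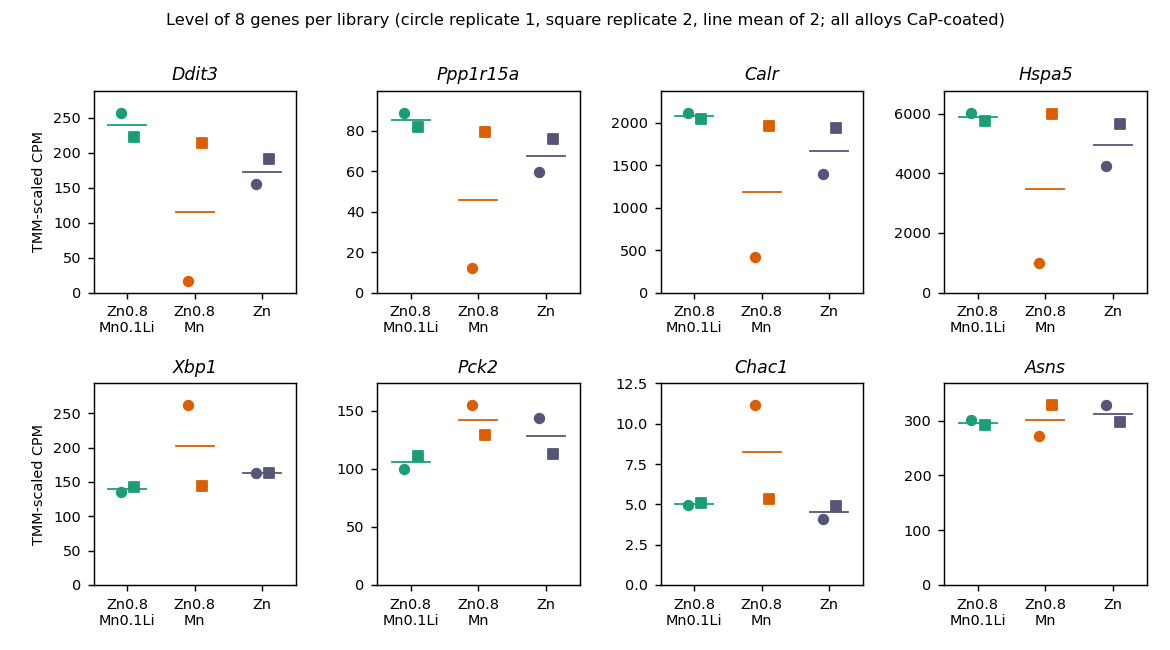
TMM-scaled CPM of 8 members in each library on axes that start at 0, with circles for replicate 1, squares for replicate 2 and a line for the mean of the 2 libraries. Ddit3, Ppp1r15a, Calr and Hspa5 are low in CaP Zn0.8Mn replicate 1 while Xbp1, Pck2 and Chac1 are high there, and Asns spans 273 to 329 CPM over all 6.

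Among the 34 chosen members, how far CaP Zn0.8Mn replicate 1 lay from the other 5 libraries differed by role. Over 2-fold lower, on log2 of CPM plus 0.5, were 14 of 34 members, against 14.9% of the 13156 genes tested. Over 2-fold higher was 1 member, Chac1, against 13% of genes. Lower by that margin were 6 of 8 regulators and 6 of 10 chaperones and folding factors, but 2 of 11 ATF4 targets, 0 of 3 sensors with Xbp1 and 0 of 2 genes of protein removal. Its level relative to the mean of the others was 0.0534 for Nupr1, 0.0781 for Ddit3, 0.145 for Manf, 0.148 for Gdf15, 0.160 for Ppp1r15a and 0.181 for Hspa5. For Chac1 it was 2.29 and for Xbp1 1.75. It lay below all 5 other libraries for 23 members, above all 5 for 9 and within their range for 2, Ern1 and Dnajb9. How many of all genes tested lay outside that range was not counted, so these counts are no trait of the members. In each of the other 5 libraries, set against the mean of its own 5 counterparts, 0 members were over 2-fold away in either direction. Of all genes tested, 1.08% to 2% were over 2-fold lower in these libraries and 0.0532% to 0.0988% higher. The 0 of 34 members is thus close to the share over all genes. Genes of the same kinds outside the members could lie on either side in CaP Zn0.8Mn replicate 1, as examples picked by their values show. Of folding genes, Dnajb11 had 68.2 CPM in it against 141 to 159 CPM elsewhere, and Uggt1 305 against 148 to 179 CPM. Of stress regulators, Bbc3 had 23.5 against 162 to 193 CPM, and Mbtps2 132 against 56.9 to 67.5 CPM. How many genes of these wider lists lay on each side was not counted. The split by role thus describes only the members as chosen. These values describe 1 library and carry no test.

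All 5 members with an ERSE were lower in CaP Zn0.8Mn replicate 1. Relative to the mean of the others they stood at 0.181 times for Hspa5, 0.224 for Calr, 0.239 for Creld2, 0.342 for Pdia6 and 0.512 for Hsp90b1. All 5 are chaperones and folding factors, a role in which 9 of 10 members were lower, so element and role cannot be told apart. Other genes with an ERSE were not followed. Herpud1, with the ERSE-II, was at 0.666 times. Genes with no exact match to the 4 motifs in the window also lay below all 5 other libraries. They included the folding genes Sdf2l1 at 0.307 and Pdia4 at 0.718, and Ddit3 at 0.0781. Near matches were not searched for, so these genes may hold related letters. The part of the element in the values was not tested. The 6 members with a C/EBP-ATF element ran from 0.0534 times for Nupr1 to 2.29 times for Chac1, which carry the same 8 letters TGATGcAA in the windows printed above. Gene length moved with the values as well: across members, Spearman's rho between length and the log2 ratio was 0.33 (n = 34 genes), and across all 13156 genes tested it was 0.38, in the same libraries and with no test, since genes are not replicates. The part of length in the differences was not tested.

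**Figure D3:**
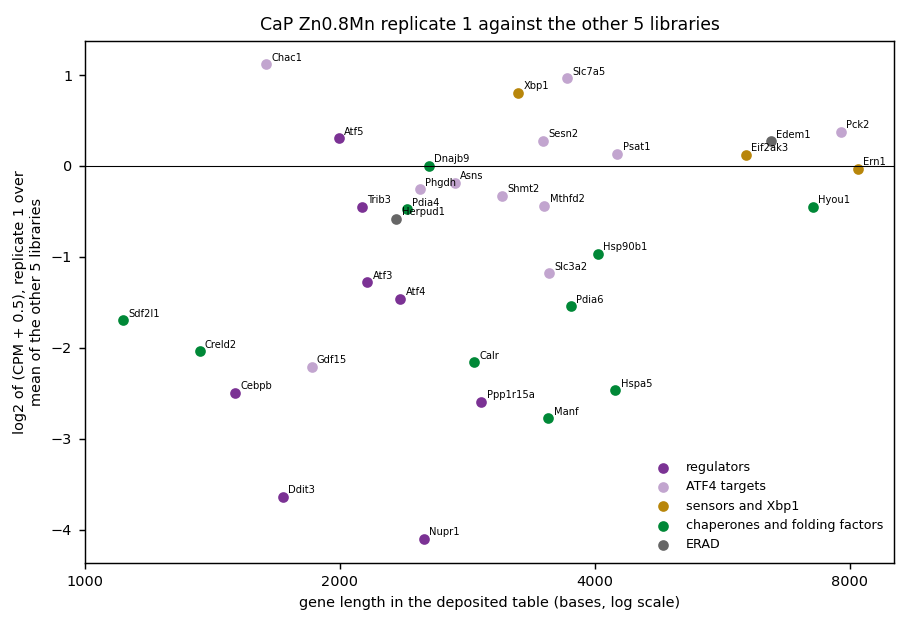
Each point is 1 member, placed by the gene length in the deposited table (log scale) and by the log2 ratio of CPM plus 0.5 in CaP Zn0.8Mn replicate 1 over the mean of the other 5 libraries. Nupr1 and Ddit3 lie lowest and Chac1 highest, and the long genes Hyou1, Pck2, Ern1, Edem1 and Eif2ak3 all lie within 0.5 of 0.

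The first comparison, CaP Zn0.8Mn0.1Li against CaP Zn, asked what manganese and lithium together did to these genes. With all 6 libraries the quasi-likelihood test of edgeR called 0 of 34 members at an adjusted p under 0.05, as it did 0 of 13156 genes (0%), with 29 genes and 0 members at an unadjusted p under 0.05 (0.22% of genes). DESeq2 and limma-voom also called 0 genes. Adjusted p was 1.00 for every member. The median log2 fold change was 0.070 over the 34 members, against 0.000047 over all genes tested, with 20 members above 0 and 14 below, where 50% of all genes were above 0. It was 0.21 for the 8 regulators (6 above 0), −0.075 for the 11 ATF4 targets (4 above 0) and 0.12 for the 10 chaperones and folding factors (8 above 0). Without CaP Zn replicate 1 the medians were 0.040 for regulators, 0.019 for ATF4 targets and 0.041 for chaperones and folding factors. Their size and, for the targets, their sign thus depended on which CaP Zn libraries were used. For Ppp1r15a, Hspa5 and Asns the log2 fold changes were 0.17, 0.057 and −0.0011 without CaP Zn replicate 1. Without CaP Zn replicate 2 instead, they were 0.53, 0.47 and −0.15.

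Without CaP Zn0.8Mn replicate 1, which belongs to neither group but sets the shared estimate of spread, the same fold changes had smaller errors. Ddit3 had a log2 fold change of 0.47 ± 0.10 (SE, 2 libraries each), an unadjusted p of 3.70e-04 and an adjusted p of 0.423 in edgeR. With all 6 libraries the error was 1.02. On the 5 libraries DESeq2 called Ddit3, with 0.48 ± 0.13 and an adjusted p of 0.0481, as 1 of 12 genes in all (0.0912%), while limma-voom gave an adjusted p of 0.337 and called 3 genes (0.0228%), none of them members. Over all the alternatives run, its adjusted p ran from 0.0481 to 1.00 (edgeR, DESeq2 and limma). The difference was 0.33 without CaP Zn replicate 1 and 0.63 without CaP Zn replicate 2. Ddit3 overlaps Mars, the methionyl-tRNA synthetase gene on the opposite strand, which had 3344 to 4370 counts per library, and the sources used here do not say whether counting used strand.

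In the same fit, 6 of 34 members had an unadjusted p under 0.05, against 5.02% of the genes tested, and none passed the adjusted threshold in edgeR. Beside Ddit3 these were Ppp1r15a with a log2 fold change of 0.34 ± 0.11 (SE), Gdf15 with 0.48 ± 0.22, Creld2 with 0.21 ± 0.10, Xbp1 with −0.23 ± 0.078 and Pck2 with −0.28 ± 0.11, at adjusted p between 0.746 and 0.967 in edgeR. Without CaP Zn replicate 1 the value was 0.17 for Ppp1r15a, 0.34 for Gdf15, 0.085 for Creld2, −0.23 for Xbp1 and −0.098 for Pck2. Xbp1 was thus the one of the 5 whose value did not move when that library was left out. Calr had 0.32 ± 0.15 and an adjusted p of 0.967 in edgeR, and 0.10 without CaP Zn replicate 1. Hspa5 had 0.25 ± 0.18, and 0.057 without it.

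The order of single libraries describes the same values in another way and is not separate evidence. On CaP Zn0.8Mn0.1Li both libraries lay above both on CaP Zn for 16 of 34 members, against 16.7% of the genes tested, and below both for 6, against 16.8%. The 16 were 4 regulators (Atf4, Ddit3, Cebpb, Ppp1r15a), 4 targets (Chac1, Gdf15, Mthfd2, Slc3a2), 6 chaperones and folding factors (Hspa5, Hsp90b1, Calr, Hyou1, Creld2, Sdf2l1), Ern1 and Herpud1. The 6 were Atf5, Pck2, Phgdh, Psat1, Xbp1 and Dnajb9. CaP Zn replicate 1 was the lowest of the 5 libraries other than CaP Zn0.8Mn replicate 1 for 19 of the 34 members, and for 24.9% of all genes tested. CaP Zn replicate 2 was lowest for 4 members. Of the 8 macrophage markers, 5 were lowest in CaP Zn replicate 1 among these 5 libraries, Lyz2 with 9182 CPM among them. Fcgr1 was highest there with 22.6 CPM, and Csf1r and Cd14 were neither. The part of these markers in the differences was not tested.

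**Figure D4:**
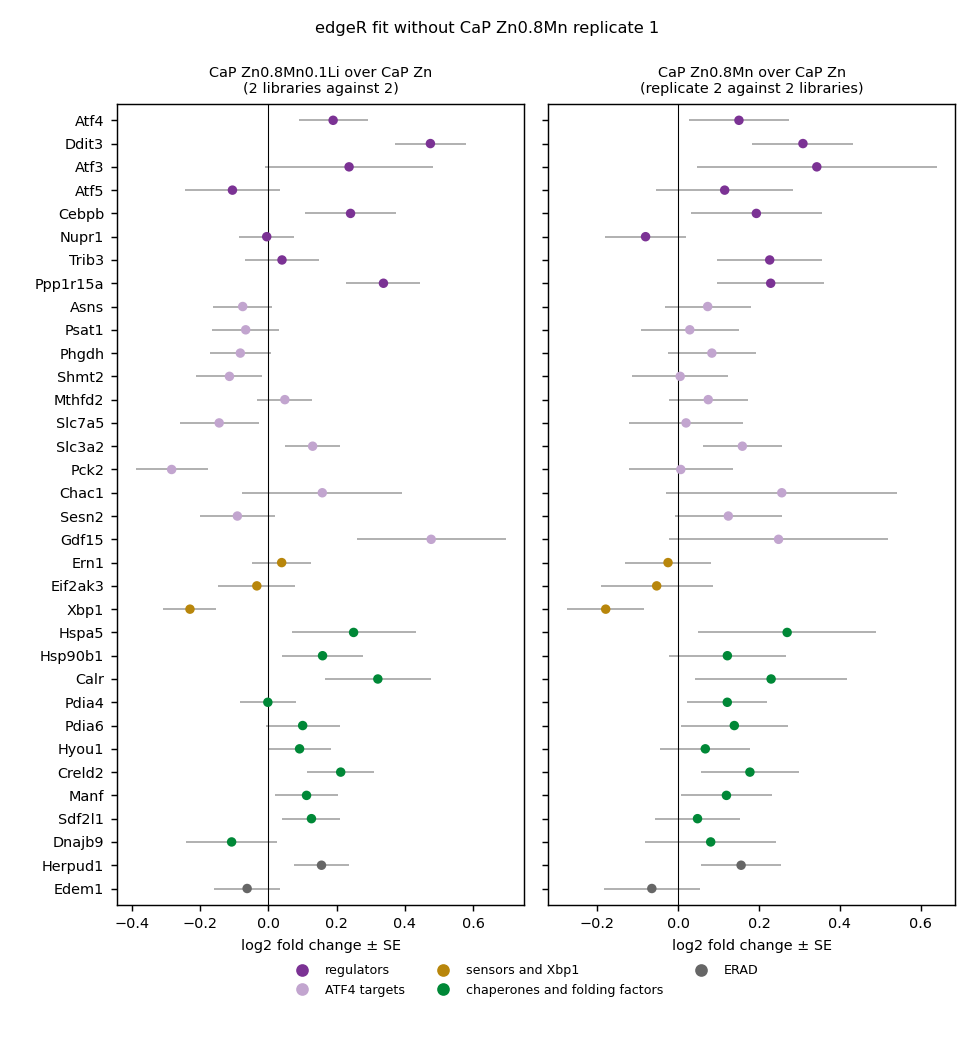
Log2 fold change ± SE of the 34 members from the edgeR fit without CaP Zn0.8Mn replicate 1, for CaP Zn0.8Mn0.1Li over CaP Zn and for CaP Zn0.8Mn (replicate 2 alone) over CaP Zn, which share the CaP Zn libraries. On CaP Zn0.8Mn0.1Li, Ddit3, Gdf15, Ppp1r15a and Calr lie above 0.3 and Pck2 and Xbp1 below −0.2; 0 members passed the adjusted threshold.

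The second comparison, CaP Zn0.8Mn against CaP Zn, asked for the effect of manganese. With 6 libraries edgeR called 0 of 34 members and 0 of 13156 genes (0%), with 207 genes (1.57%) and 0 members at an unadjusted p under 0.05. DESeq2 called 1 gene (0.0076%) and limma-voom 0, none of them members. The median log2 fold change was −0.15 over the members, with 10 above 0 and 24 below, against 0.0048 over all genes (50.5% above 0), −0.49 for regulators, −0.47 for chaperones and folding factors and −0.055 for ATF4 targets (5 above 0 and 6 below). At the ends of the range, Chac1 had 0.88 ± 0.42 and Nupr1 −1.0 ± 1.11 (SE), at adjusted p of 0.773 in edgeR for both. Without CaP Zn0.8Mn replicate 1, Chac1 had 0.26 and Nupr1 −0.080. Libraries did not overlap for 3 members above CaP Zn (Atf5, Chac1, Psat1), against 12.5% of genes, and for 2 below (Ern1, Nupr1), against 12.8%.

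Without CaP Zn0.8Mn replicate 1 the sign turned. The median was 0.12, with 29 members above 0 and 5 below, against 48.2% of all genes above 0 and an overall median of −0.0084. With TMM, all 11 ATF4 targets (median 0.074) and all 10 chaperones and folding factors (median 0.12) were above 0. So were 7 of 8 regulators (median 0.21), but 0 of 3 sensors with Xbp1. Scaled by library totals only, 24 members were above 0 and 10 below, with a median of −0.074 over all genes. The group was then 1 library, assumed to vary like the others, and its members share it. edgeR called 0 members and 2 genes (0.0152%), and DESeq2 0 members and 5 genes (0.038%). Replicate 2 lay above both CaP Zn libraries for 23 members, against 32% of genes, and below both for 5, against 32.8%. An unadjusted p under 0.05 was reached by 1 member, Ddit3, with 0.31 ± 0.13 (SE) and an adjusted p of 0.967 in edgeR, against 4.33% of genes. Xbp1 had −0.18 ± 0.096, Atf3 0.34 ± 0.30, Hspa5 0.27 ± 0.22 and Trib3 0.23 ± 0.13. With all 6 libraries the sign was the opposite for each of these and for Ddit3. Xbp1 then had 0.32, Atf3 −0.21, Hspa5 −0.51, Trib3 −0.049 and Ddit3 −0.59.

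The third comparison set CaP Zn0.8Mn0.1Li over CaP Zn0.8Mn and asked what lithium added. edgeR called 0 of 34 members and 0 of 13156 genes (0%) with 6 libraries, with 316 genes (2.4%) and 0 members at an unadjusted p under 0.05. DESeq2 called 3 genes (0.0228%) and limma-voom 0, none of them members. The median log2 fold change was 0.22 over the members, with 23 above 0, against −0.0019 over all genes (49.9% above 0), 0.71 for regulators, 0.62 for chaperones and folding factors and −0.019 for ATF4 targets. Without CaP Zn0.8Mn replicate 1 these medians were −0.023 for all members, 0.044 for regulators, 0.0087 for chaperones and folding factors and −0.12 for ATF4 targets, of which 1 of 11 was above 0. edgeR then called 0 members and 2 genes (0.0152%), and DESeq2 and limma-voom each 0 members and 3 genes (0.0228%). Pck2 was the 1 member with an unadjusted p under 0.05, with −0.29 ± 0.13 (SE) and an adjusted p of 1.00 in edgeR, against 3.16% of genes. Atf5 had −0.22 ± 0.17 and Sesn2 −0.21 ± 0.13. With all 6 libraries Pck2 had −0.43, Atf5 −0.31 and Sesn2 −0.29.

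Single libraries in the third comparison did not overlap for 9 members above and 8 below, against 17.1% and 17.5% of genes. Without CaP Zn0.8Mn replicate 1 they did not overlap for 9 above and 16 below, against 33.5% and 34.4%. Of the 9, 4 were regulators and 3 were chaperones and folding factors. Of the 8, 5 were ATF4 targets.

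The rest of the pathway was described with 4 further lists. The 20 aminoacyl-tRNA synthetases, which charge tRNAs and include many ATF4 targets, had a median log2 fold change, without CaP Zn0.8Mn replicate 1, of −0.056 on CaP Zn0.8Mn0.1Li over CaP Zn, 0.013 on CaP Zn0.8Mn over CaP Zn and −0.063 on CaP Zn0.8Mn0.1Li over CaP Zn0.8Mn. The last had 1 of 20 above 0, against 49.6% of all genes. Iars, the isoleucyl-tRNA synthetase, had −0.29 ± 0.090 (SE) on CaP Zn0.8Mn0.1Li over CaP Zn, with an adjusted p of 0.692 in edgeR. The 16 tested of 17 other ATF4 targets had medians of −0.055, 0.015 and −0.060 in the same order. Among them, Pycr1 and Aldh1l2, genes of proline and folate metabolism, had −0.34 ± 0.19 and −0.23 ± 0.089 on CaP Zn0.8Mn0.1Li over CaP Zn. Cth, which makes cysteine, had 0.33 ± 0.14 on CaP Zn0.8Mn over CaP Zn, and −0.33 ± 0.61 with all 6 libraries. With all 6, the medians in the same order were −0.056, −0.074 and 0.017 for the synthetases, and −0.053, 0.10 and −0.26 for the other ATF4 targets.

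The 27 tested of 28 other folding and degradation genes of the endoplasmic reticulum had medians of −0.0017, 0.067 and −0.051 without CaP Zn0.8Mn replicate 1, in the same order of comparisons. Pdia3, a disulfide isomerase that works with calreticulin, had 0.26 ± 0.13 (SE) on CaP Zn0.8Mn over CaP Zn, and −0.12 ± 0.33 with all 6 libraries. Ero1l, which oxidises these isomerases, had −0.17 ± 0.12 on CaP Zn0.8Mn0.1Li over CaP Zn. Ostc, a subunit of the glycosylation complex, had −0.24 ± 0.095 on CaP Zn0.8Mn0.1Li over CaP Zn0.8Mn, and 0.078 ± 0.27 with all 6. The 13 other stress regulators had medians of −0.058, −0.040 and 0.024. With all 6 libraries the medians were −0.0026, −0.12 and 0.12 for the folding and degradation genes, and −0.058, −0.013 and −0.029 for the stress regulators. Rtcb, the ligase that joins spliced Xbp1, had −0.21 ± 0.096 on CaP Zn0.8Mn0.1Li over CaP Zn0.8Mn, and −0.029 ± 0.20 with all 6. In these 4 lists edgeR called 0 genes in each of the 3 comparisons, with 6 libraries and without CaP Zn0.8Mn replicate 1.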

How the data were processed

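Polyadenylated RNA was sequenced (TruSeq libraries, per the labels' protocols). The authors deposited raw whole-number counts per gene, and FPKM values whose library size was 0.976 to 1.06 times the count total, per the deposited tables. Aligner and counter: not given in the sources used here. Build mm9 stands in the submitters' processing notes, but all 36 gene entries with a listed symbol have GRCm38 start and end positions in the files, so coordinates are printed as GRCm38 and the conflict stands. The tables hold 0 columns of other samples.

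Groups came from the treatment label and replicate numbers from titles. Within groups, counts differed by more than sampling noise (chi-square per gene 6.02, 270.2 and 11.3 for CaP Zn0.8Mn0.1Li, CaP Zn0.8Mn and CaP Zn), so each library counted once. Counts were tested two-sided with edgeR 4.0.16 (quasi-likelihood, robust, TMM factors of 0.973 to 1.05, filterByExpr, 13156 genes, all 6 libraries, 3 residual degrees of freedom, Benjamini-Hochberg over all genes tested) in R 4.3.3. Alternatives used DESeq2 1.42.0, limma 3.58.1, other scalings and filters, log2 of FPKM plus 1 or 0.1, the replicate block and libraries left out. The fit was checked on simulated data. The totals of 14944070 to 17709290 counts set the counting precision, and a count of 3 per library served as the floor. All members are named. Values per library are given for 13 genes whatever their result, for members passing the threshold, and for the 3 members with mean CPM of 5 or more that had the largest change per comparison, in either the fit to 6 libraries or the one that drops CaP Zn0.8Mn replicate 1. The values of Slc7a5, Slc3a2 and Gdf15 per library, and the promoters printed, were chosen after their values were seen. From the further lists the 2 of largest change per comparison could be named. Levels per library of Atf6, Dnajb11, Uggt1, Bbc3 and Mbtps2 were given outside that rule, after their values were seen. The members and lists were chosen with earlier results of these data known. Promoters come from RefSeq.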

Additional observations from a re-analysis of the deposited data

How the results depend on the processing

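The members called stayed at 0 in all 3 comparisons under other size factors, library totals, DESeq2, limma-voom, both filters, FPKM with either pseudocount and only the libraries compared. With the replicate block, edgeR called 0 genes and 0 members in each comparison. Deviations of same-numbered libraries correlated at −0.098, −0.19 and 0.29 between groups. On CaP Zn0.8Mn the deviation is mostly that of replicate 1, so these values cannot decide whether the numbers pair the libraries. Leaving out 1 library at a time gave 0 to 26 members called on CaP Zn0.8Mn0.1Li over CaP Zn0.8Mn (0 to 8096 genes), 0 to 25 on CaP Zn0.8Mn over CaP Zn (0 to 7808 genes) and 0 to 0 on CaP Zn0.8Mn0.1Li over CaP Zn. The high ends come from leaving out CaP Zn0.8Mn replicate 2, so that replicate 1 alone stood for the alloy. The spread in that fit came from the other groups only, so these calls describe 1 library. The median log2 fold change of the ATF4 branch ranged from −0.40 to 0.12 on CaP Zn0.8Mn over CaP Zn, from 0.0024 to 0.072 on CaP Zn0.8Mn0.1Li over CaP Zn and from −0.098 to 0.43 on CaP Zn0.8Mn0.1Li over CaP Zn0.8Mn. That of the endoplasmic reticulum branch ranged from −0.50 to 0.12, from 0.037 to 0.15 and from 0.0032 to 0.65. Genes called on CaP Zn0.8Mn over CaP Zn numbered 1 with DESeq2 or no filter, and, without CaP Zn0.8Mn replicate 1, 2 with TMM or relative log expression, 5 with DESeq2, 4 with limma-voom and 1 with library totals. The ATF4-branch median was then 0.12 with DESeq2, 0.14 with limma-voom and 0.13 with relative log expression. With library totals, 24 members were above 0 and 10 below, against 29 and 5 with TMM. On CaP Zn0.8Mn0.1Li over CaP Zn, 12 genes with 1 member (Ddit3) were called by DESeq2 and 3 by limma-voom without that library. On CaP Zn0.8Mn0.1Li over CaP Zn0.8Mn, 3 genes were called by DESeq2 and 1 with no filter, and without that library 2 with TMM, relative log expression or library totals and 3 with DESeq2 or limma-voom. Gdf15 and Chac1, under 12 CPM in every library, had the fewest counts of the members, 489 and 570 over 6 libraries, and so the widest counting error.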
